A study of Mus musculus with 20 samples.

Results

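Olfactory receptor genes were followed as DNA, not RNA, in 20 mesotheliomas. The members are the autosomal probes that are not array controls and whose gene name starts with Olfr, 78 probes for 66 genes. The whole array names 20368 autosomal genes on 161460 autosomal probes. The choice rests on names and positions and uses no measured value. All 66 names match gene symbols of the RefSeq annotation of GRCm38.p6, 63 of them protein coding and 3 transcribed pseudogenes. That annotation holds 1428 Olfr symbols, so the array reads a small part of the family under its own names.

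The tumours were peritoneal mesotheliomas of mice given crocidolite, an asbestos fibre, by intraperitoneal injection. All 20 animals received 1.5 mg at 6 and again at 7 weeks of age, 3 mg in total, and were followed for 600 to 700 days. The 6 groups were 2 sets of wild-type mice, WT_Dmt1 (n = 4, the set whose label names Dmt1) and WT_plain (n = 3), mice with a Dmt1 transgene (Dmt1Tg, n = 4), and mice without Mutyh (MutyhKO), Ogg1 (Ogg1KO) or Mth1 (Mth1KO), n = 3 each. Dmt1 carries iron into cells, and Mutyh, Ogg1 and Mth1 act against oxidised guanine. Each array set tumour DNA, in Cy5, against DNA in Cy3 from kidney without tumour of C57BL/6 mice with the tumour's genotype. The labels do not give the promoter of the transgene or the share of mesothelioma cells in a tumour. They do not say whether a kidney came from the tumour's own animal. Replicates are separate tumours as the labels name them, and the p-values measure the spread between these tumours.

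Olfactory receptors are odorant-binding, G protein-coupled receptors of sensory neurons in the nose, and each neuron uses a single gene out of the largest gene family of the mouse. The genes are short, mostly with a single coding exon, and lie in tandem arrays that grew by local duplication. Near-identical copies and differences in copy number between strains and individuals are common in such arrays. Class I receptors sit in a single array around the beta globin genes, and class II receptors in arrays on most other chromosomes.

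The values are log2 ratios of tumour over kidney, centred on each array's autosomal median. On this scale 0 is the array's typical copy number, and in a pure diploid tumour 1 gained copy would give 0.58 and 1 lost copy -1. Grouping members under 1 Mb apart gave 24 clusters on 12 chromosomes, of which 10 hold a single gene. Of the 66 genes, 60 have 1 probe. The exceptions are Olfr56 (7 probes), Olfr1300-ps1 (3 probes), and Olfr27, Olfr44, Olfr872 and Olfr947-ps1 (2 probes each). Probe positions are in mm9.

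The probe sequences are shown because most of what single genes can tell depends on how brightly 1 probe hybridised. Capitals mark unbroken runs of 8 or more A or T bases. The strand is not given in the files, so each probe is printed in the orientation of the files. The first 4 probes gave weak kidney signal. Olfr1164 lies at chr2:87933081-87933140 and has a GC content of 20.0%, and its kidney signal was well above background on 0 of 20 arrays. Olfr330 (chr11:58347609-58347668) reached that level on 3 arrays, Olfr695 (chr7:113858182-113858241) on 4 and Olfr69 (chr7:110917151-110917210) on 9. Olfr913 (chr9:38401041-38401100) reached it on 13 arrays. Olfr736 (chr14:51013181-51013240), Olfr129 (chr17:38196485-38196544) and Olfr1240 (chr2:89279439-89279498) reached it on all 20.
Olfr1164: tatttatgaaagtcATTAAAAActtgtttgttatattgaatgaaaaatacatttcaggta
Olfr330: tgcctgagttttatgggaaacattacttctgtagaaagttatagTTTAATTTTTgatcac
Olfr695: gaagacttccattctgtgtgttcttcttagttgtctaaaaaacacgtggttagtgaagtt
Olfr69: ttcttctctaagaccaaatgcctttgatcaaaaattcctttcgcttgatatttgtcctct
Olfr913: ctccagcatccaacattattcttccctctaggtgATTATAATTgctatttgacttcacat
Olfr736: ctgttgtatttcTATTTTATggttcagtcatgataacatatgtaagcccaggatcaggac
Olfr129: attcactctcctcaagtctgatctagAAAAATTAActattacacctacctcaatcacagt
Olfr1240: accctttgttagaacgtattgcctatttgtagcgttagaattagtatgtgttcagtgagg

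Over all 78 member probes the GC content averaged 35.8% ± 3.37 (SD over probes), against 36.8% ± 1.91 over all autosomal probes. Runs of 8 or more A or T occur in 23 member probes (29.5%) and in 25.6% of all autosomal probes. Kidney signal was well above background on all 20 arrays at 44 member probes (56.4%), against 59.7% of all. It was so on under 5 arrays at 7 member probes (8.97%), against 3.60% of all.

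Array noise, the scaled difference between neighbouring probes, ran from 0.214 in MutyhKO 1 to 0.537 in WT_Dmt1 1. WT_Dmt1 1 gave the lowest value of 22 member genes and the highest of 7. All arrays of WT_Dmt1 lie on slide 1 and all of Dmt1Tg on slide 2, both scanned on day 1, so genotype and slide cannot be told apart in that comparison. All other arrays lie on slides 3 to 5 and were scanned on day 2. Slide 3 holds WT_plain and MutyhKO 1. Slide 4 holds MutyhKO 2 and 3 and Ogg1KO 1 and 2, and slide 5 holds Ogg1KO 3 and Mth1KO. Ogg1KO and Mth1KO thus share no slide with WT_plain, and genotype and slide cannot be told apart there either. MutyhKO shares a slide with WT_plain only through MutyhKO 1. The wild-type sets therefore differ in slide and scan day as well, and set and day cannot be told apart. Spots inside surface patches, where the local median of the centred log2 ratio was at least 0.5 in size, were left out. They made up 8.14% of spots on WT_plain 1, 5.14% on WT_plain 2 and 0.290% on MutyhKO 1. Leaving them out removed Olfr69 and Olfr1213 in 1 tumour each and Olfr741 in 2. Of the member probes, 6 were printed as 5 spots, which shows the technical error within an array.

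That technical error differed by gene. The SD among the 5 spots of Olfr736 had a median over arrays of 0.153, and that of Olfr1226 0.151 and of Olfr995 0.158. Olfr703 and Olfr553 gave 0.269 and 0.281. Olfr1164 gave 0.653, with single arrays up to 0.905. Over all replicated autosomal probes the median spot SD of an array ran from 0.136 to 0.298. For Olfr1164 the spots of 1 array thus varied as much as its mean did between tumours (SD 0.603), and neither channel was well above background on any array, so no copy number is read from it.

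As a family the receptor genes lay slightly above the centre of the genome in all 20 tumours. The mean over member genes was lowest in WT_Dmt1 4 at 0.014, had a median of 0.131, and was highest in Mth1KO 2 at 0.324. The mean of all other autosomal genes was below 0 in all tumours but WT_Dmt1 1, with a median of -0.14. The members exceeded the other genes by 0.039 in WT_Dmt1 1 and by 0.534 in Mth1KO 2, the extremes. In WT_Dmt1 1, 42.4% of member genes were above 0, against 51.3% of all genes. In the other 19 tumours the share was higher among members, as in Ogg1KO 1 with 83.3% against 34.1%. Without Olfr69, Olfr913 and Olfr1164 the family mean of WT_Dmt1 1 was 0.019 in place of 0.057. The flanks up to 1 Mb beyond the clusters, averaged over the 24 clusters, lay between -0.030 and 0.042. This measure is unlike a mean over genes, and its part in the gap was not tested.

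**Figure D1:**
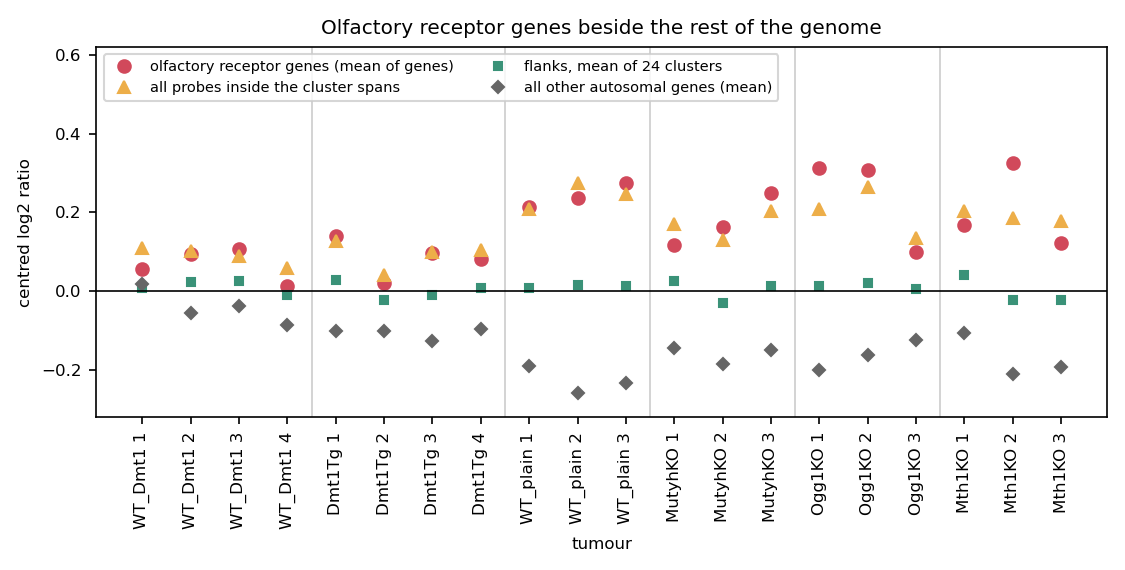
Mean centred log2 ratio (y axis) in each of the 20 tumours (x axis, grouped by genotype). Shown are the 66 olfactory receptor genes, all probes inside the 24 cluster spans, the cluster flanks averaged over clusters, and all other autosomal genes. Receptor genes and spans lie above 0 in every tumour, flanks lie near 0, and the other genes lie below 0 in all tumours but WT_Dmt1 1.

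The family mean was lowest in the groups of scan day 1. It was 0.068 ± 0.042 (SD, n = 4) in WT_Dmt1 and 0.085 ± 0.049 (n = 4) in Dmt1Tg. It was 0.241 ± 0.031 (n = 3) in WT_plain, 0.176 ± 0.067 in MutyhKO, 0.240 ± 0.123 in Ogg1KO and 0.205 ± 0.106 in Mth1KO (n = 3 each). The other genes averaged -0.040 ± 0.044 in WT_Dmt1 and -0.23 ± 0.035 in WT_plain. On day 1 the tumours of Dmt1Tg (0.021 to 0.139) and WT_Dmt1 (0.014 to 0.107) overlapped. On day 2 the WT_plain tumours lay between 0.214 and 0.274, within the range of the knockout tumours from 0.098 to 0.324. The 10 class I genes averaged higher than the 56 class II genes in every group mean, with 0.205 ± 0.108 against 0.043 ± 0.061 in WT_Dmt1 and 0.457 ± 0.118 against 0.203 ± 0.019 in WT_plain. By tumour class I was higher in 17 and lower in 3, WT_Dmt1 2, Ogg1KO 3 and Mth1KO 1. The class I mean includes Olfr69 and Olfr67, whose kidney signal was well above background on only 9 and 4 of 20 arrays. Over all 192 probes of its span, class I had a median over tumours of 0.159. The other cluster spans of 20 or more probes had medians from 0.0995 to 0.199, so the class I span did not stand out. Every group mean of the family lay below the 0.58 of 1 gained copy.

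Among single genes, 50 of 66 had a median over tumours above 0 (75.8%, against 35.0% of all autosomal genes). Olfr292, Olfr615 and Olfr1477 were above 0 in all 20 tumours, with medians of 0.39, 0.47 and 0.28. No member was below 0 in all of them. The members with 1 probe had a median SD over tumours of 0.292, against 0.311 for all 1-probe genes. The spread followed the signal. It was 0.242 at the 32 members with 1 probe that were well above background in the kidney on all arrays and 0.431 at the 28 that were not. All 1-probe genes gave 0.272 and 0.414 for the same classes.

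**Figure D2:**
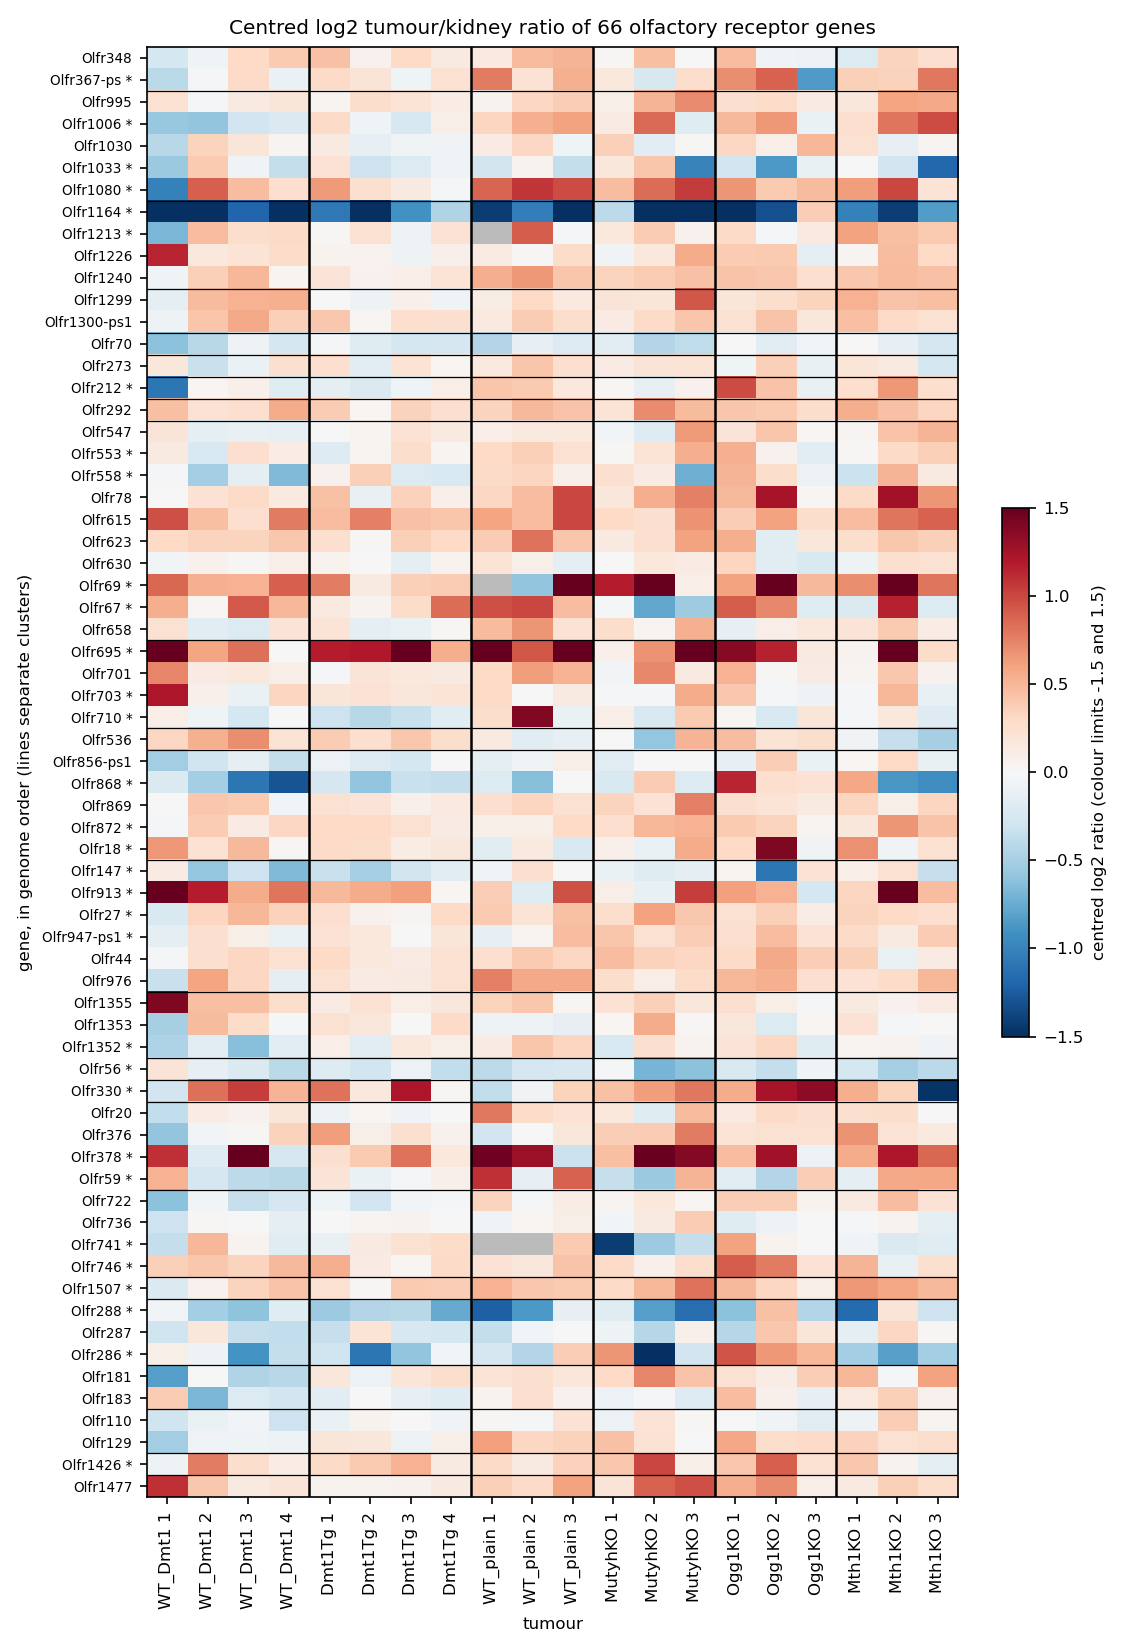
Centred log2 tumour over kidney ratio (colour, limits -1.5 and 1.5) of the 66 member genes (rows, in genome order, clusters separated by lines) in the 20 tumours (columns, by group). Grey cells have no value, and a star marks the 32 genes whose kidney signal was not well above background on some array. Of the 41 genes whose values span more than 1 log2 unit, 27 are starred, and WT_Dmt1 1 holds the lowest or highest value of 29 genes.

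The 6 genes with several probes, for which chance error of 1 probe weighs less, showed no separate copy levels. Olfr1300-ps1, a pseudogene on chromosome 2, ran from -0.077 in WT_Dmt1 1 over a median of 0.27 to 0.57 in WT_Dmt1 3. Olfr27, in the larger array on chromosome 9, ran from -0.22 in WT_Dmt1 1 over 0.30 to 0.60 in MutyhKO 2. Olfr872, in the other chromosome 9 array, ran from -0.017 in WT_Dmt1 1 over 0.29 to 0.66 in Mth1KO 2. Olfr44 had a median of 0.30 and a highest value of 0.57, and the pseudogene Olfr947-ps1 a median of 0.21 and a highest value of 0.46. The values of each ran together without a gap that set a genotype apart.

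Olfr56 was the exception in level. It is the single member of its cluster on chromosome 11, and its 7 probes span chr11:48884235-48934241. The probe at chr11:48934182-48934241 was well above background on 0 of 20 arrays in the kidney and on 1 in the tumour. The probes that start at 48892026 and 48902330 reached that level in the kidney on 12 and 18 arrays. The mean over all 7 probes, used here, includes them. Olfr56 was below 0 in 19 of 20 tumours with a median of -0.26. The group means were -0.14 ± 0.25 in WT_Dmt1, -0.23 ± 0.12 in Dmt1Tg, -0.30 ± 0.086 in WT_plain, -0.45 ± 0.37 in MutyhKO, -0.21 ± 0.15 in Ogg1KO and -0.39 ± 0.12 in Mth1KO. The lowest values were -0.70 in MutyhKO 2 and -0.62 in MutyhKO 3, while MutyhKO 1 stood at -0.027. The knockout group therefore held both the lowest tumours and one of the highest, and the groups overlapped.

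Copy states were read by 1 rule for all genes with at least 2 probes. A tumour's value was called when it departed from the gene's median over the 20 tumours by at least 0.4 and by at least 4 times the array noise divided by the square root of the number of probes. None of the 120 member values was called, against 0.667% of 250415 values over all genes. At that share few of 120 values would be called. The nearest value was Olfr56 in MutyhKO 2, which departed by -0.45 and passed at 3 times the noise. At that setting 2.05% of all values passed.

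With 1 probe allowed, 15 of 1316 member values were called (1.14%), against 0.802% over all genes. The calls fell on 9 genes, Olfr1164, Olfr286, Olfr330, Olfr695, Olfr69, Olfr710, Olfr741, Olfr868 and Olfr913, which are named because their values were seen. All 15 lie at probes whose kidney signal was not well above background on some array. In 11 of the 15 the kidney spot was below that level on the called array itself. Of the 217 values of 1-probe members read from such spots, 11 were called (5.07%), against 3.62% over all 1-probe genes. Of the 979 values read from spots above it, 4 were called (0.409%), against 0.716% over all 1-probe genes. Member genes with kidney signal well above background throughout gave 0 calls among 680 values, against 0.633% over all such genes.

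**Figure D3:**
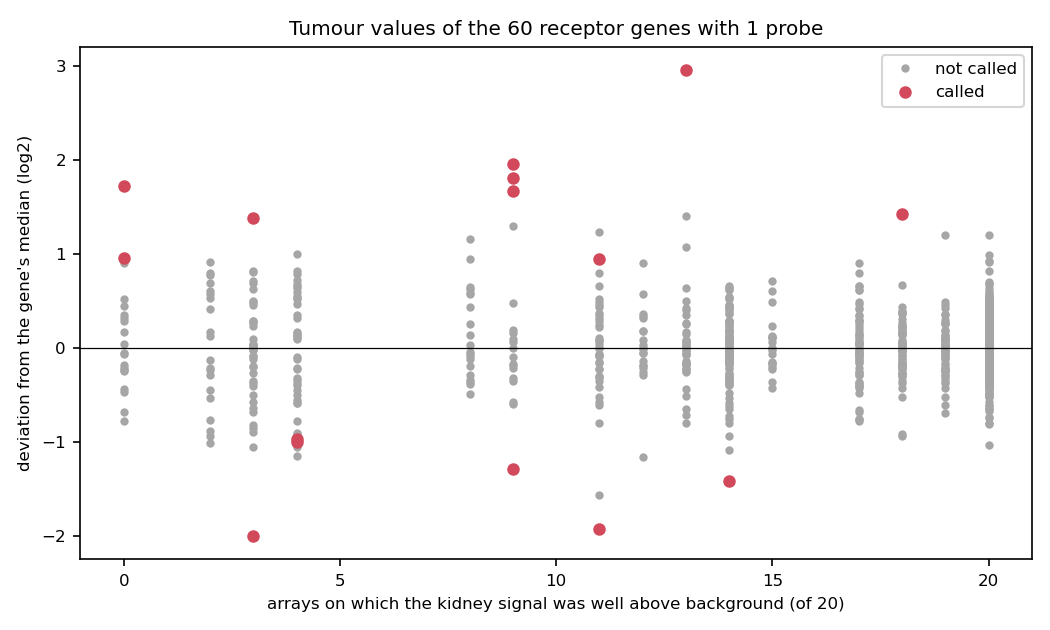
Departure of each tumour's value from the gene's median over tumours (y axis, log2) for the 60 receptor genes with 1 probe, against the number of arrays on which the kidney signal was well above background (x axis, 0 to 20). Each point is 1 gene in 1 tumour, and red points are called. All called points lie left of 20 arrays.

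Olfr69, a class I receptor gene, gave the most calls. Its ratio was 2.51 in WT_plain 3, 2.66 in MutyhKO 2 and 2.37 in Ogg1KO 2, and it was -0.59 in WT_plain 2. Mth1KO 2 was also high at 2.00 but did not pass the rule. It was 0.86, 0.53, 0.52 and 0.90 in the WT_Dmt1 tumours and between 0.13 and 0.77 in Dmt1Tg. The high tumours thus came from different genotypes, and no group was high throughout. In all 4 called tumours the kidney spot was not well above background. The mean departure of the 10 nearest probes in those tumours was 0.249 ± 0.082 (SE) in WT_plain 2 and between -0.023 and 0.140 in the others. After a background correction that moderates weak spots (normexp), Olfr69 departed by -0.22, 0.35 and -0.11 in the 3 high tumours and by -0.78 in WT_plain 2.

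Olfr913, on chromosome 9, had the single largest value of the family. It was 3.49 in WT_Dmt1 1, and 1.18, 0.55 and 0.80 in the other WT_Dmt1 tumours. Mth1KO 2 was next at 1.94, and the remaining tumours of the other groups lay between -0.26 and 1.04. In WT_Dmt1 1 both channels were well above background, and the departure was 2.95, or 2.62 with normexp. The 10 nearest probes in WT_Dmt1 1 departed by 0.146 ± 0.217 (SE). The value therefore rests on 1 spot of 1 array, the one with the highest noise.

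The other single-probe calls went both ways. Olfr330, the single member of another chromosome 11 cluster, was -1.47 in Mth1KO 3 and had a median of 0.55 in the other tumours. Olfr286 on chromosome 15 was -2.22 in MutyhKO 2 and 0.66 in MutyhKO 1, 2 tumours of the same genotype with opposite sign. Olfr741 was -1.43 in MutyhKO 1, Olfr710 1.39 in WT_plain 2 and Olfr868 1.14 in Ogg1KO 1. Olfr695 was called in MutyhKO 1 and Mth1KO 1, at 0.081 and 0.048, while its median was 1.04. WT_Dmt1 4 was as low, at -0.0062, and was not called on its noisier array. In 10 of the 15 calls the departure fell below 0.4 in size with normexp. In no call did the 10 nearest probes depart by more than 0.259 on average, the value for Olfr710.

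Clusters were read by the same rule. Over the member probes of clusters with at least 2 of them, 1 of 300 cluster values was called (0.333%), against 0.211% of 1 Mb bins. A bin needs at least 3 probes, and all its probes count, with a median spacing of 10.8 kb. As the rule depends on the number of probes, the 2 shares are not strictly alike. The called value was that of the class I cluster, chr7:109683833-111791508, in Mth1KO 2. Its 10 member probes departed by 0.47 there. The departure was also 0.47 after subtracting the median of the non-member probes inside the cluster and up to 1 Mb beyond it. All 10 class I genes lay above their medians there. Olfr69 stood at 2.00, Olfr78 at 1.25 and Olfr67 at 1.16, against medians of 0.70, 0.33 and 0.37. The other 7 departed by 0.067 to 0.440, with a mean of 0.242. Without Olfr69 the departure was 0.379, below the size the rule asks for. All 192 probes between the first and last member departed by 0.00071 in that tumour.

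Reading all probes inside a span, which was chosen after the values were seen, raises the number of probes from 78 to 899. The class I span had ratios of 0.066 in WT_Dmt1 4, a median of 0.159, and 0.30 in WT_plain 2. The span of the 6 genes at chr9:38210112-39761886 (149 probes) ran from 0.037 over 0.177 to 0.336. The chromosome 2 spans at chr2:85278362-86397175 (98 probes) and chr2:87933081-89279498 (119 probes) ran from -0.0012 over 0.191 to 0.347 and from -0.016 over 0.151 to 0.349. The chromosome 11 span at chr11:73164525-74100069 (80 probes) ran from 0.017 over 0.174 to 0.309. Olfr20, its first gene, has 1 bright probe and ran from -0.37 in WT_Dmt1 1 over 0.15 to 0.79. No span of 20 or more probes left its own median by more than -0.17 or 0.26 in any tumour, and none of their 200 values was called. The error of a span mean in 1 tumour, taken over its probes, was 0.022 to 0.049 for the class I span.

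**Figure D4:**
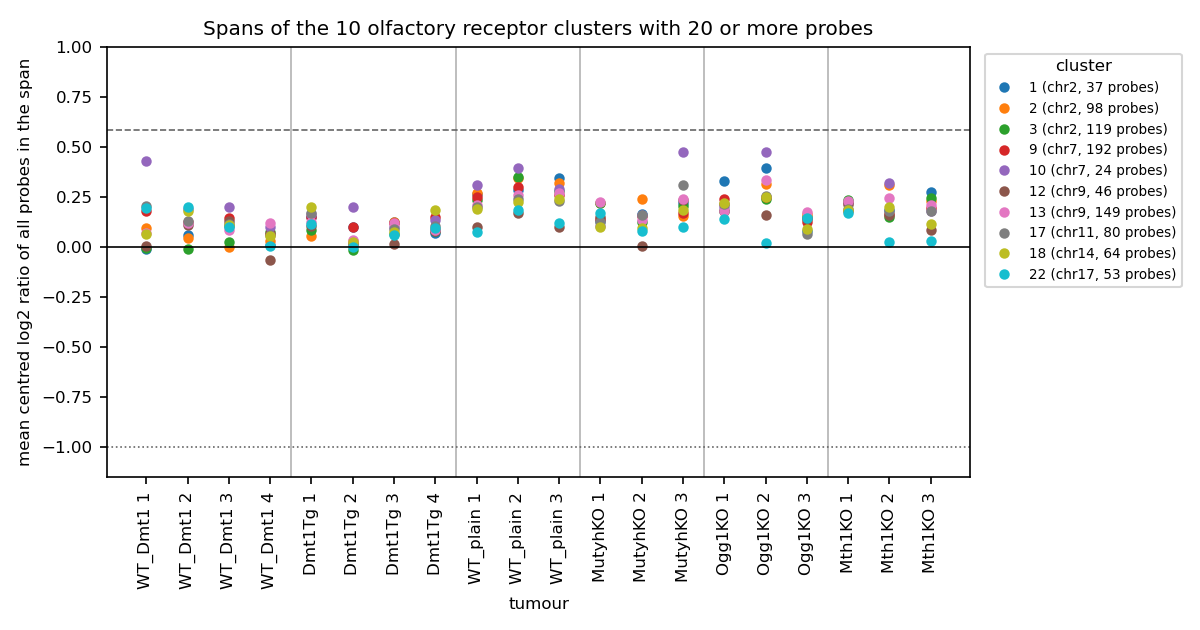
Mean centred log2 ratio (y axis) of all probes between the first and last member of each cluster with 20 or more probes, in the 20 tumours (x axis). The dashed and dotted lines mark 1 gained copy (0.58) and 1 lost copy (-1) in a pure diploid tumour, and all points lie between them, most of them above 0.

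Many spans stood above their surroundings. Here the mean over the probes of a span was set against the median over its flank probes. How much of a gap comes from these unlike measures was not tested. The class I span exceeded its flanks in 20 of 20 tumours, by a median of 0.189. So did the chromosome 11 span (median 0.316) and the chr14:50515601-51273869 span (median 0.131). The chromosome 9 spans exceeded theirs in 19 tumours each, by medians of 0.222 and 0.146. The chr2:87933081-89279498 span did so in 11 tumours (median 0.0032), with flanks at 0.150 themselves, and the chr17:37635216-38196544 span in 9 (median -0.0053). Of the smaller clusters, that of Olfr56 lay above its flanks in 2 tumours, that on chromosome 4 at chr4:43711407-43711466 in 5 and that on chromosome 15 in 8. Over all spans the mean was 0.090 ± 0.023 (SD, n = 4) in WT_Dmt1 and 0.093 ± 0.037 (n = 4) in Dmt1Tg, against 0.244 ± 0.033 (n = 3) in WT_plain.

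Runs of 20 neighbouring probes inside the spans were called at 29 of 13440 positions (0.216%), against 0.551% along the autosomes. Runs of 10 were called at 60 of 15440 positions (0.389%), against 0.643% along the autosomes. Among the stretches of runs of 10, one in WT_plain 3 holds Olfr1006, one in Mth1KO 3 Olfr1226 and one in WT_plain 2 Olfr27. The runs of 20 join into 3 stretches without a member probe. With the patch spots kept, 87 runs of 20 were called (0.647%), against 1.28% along the autosomes. Stretches in WT_plain 1 and WT_plain 2 then held members such as Olfr995, Olfr1006, Olfr1226 and Olfr868. In WT_Dmt1 1, 33 probes at chr7:111243865-111621831, among them probes of Trim genes that lie between the class I receptors, averaged 0.53 ± 0.15 (SE over probes), against 0.123 ± 0.116 (SD) over the other 19 tumours. In MutyhKO 2, 21 probes at chr7:111200396-111430471 averaged -0.17 ± 0.12, against 0.232 ± 0.159. In WT_plain 2, 35 probes at chr2:88053715-88466544 averaged 0.49 ± 0.071, against 0.126 ± 0.101. With normexp 0 runs of 20 in a span were called, against 0.130% along the autosomes. With probes not well above background in the kidney left out it was 0 as well, against 0.491%. The departures fell with normexp from 0.38, -0.39 and 0.36 to 0.17, -0.057 and 0.17.

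No receptor gene was called between a genotype and the wild-type set it was compared with. The labels tie WT_Dmt1 to Dmt1Tg by name, and do not state which wild-type mice serve the knockouts, which were set against WT_plain. The test was limma on gene means, 1 fit of all 20 tumours, with Benjamini-Hochberg adjustment over all genes. For Dmt1Tg against WT_Dmt1, 0 of 66 members were called, against 0.0147% of all genes. For MutyhKO against WT_plain 0 members were called, against 1.67% of all genes, for Ogg1KO 0, against 0%, and for Mth1KO 0, against 0.157%. At an unadjusted limma p under 0.05 there were 6, 5, 5 and 0 members, against 12.0%, 16.1%, 11.5% and 12.3% of all genes. The median member difference was 0.030 for Dmt1Tg, -0.028 for MutyhKO, -0.044 for Ogg1KO and -0.039 for Mth1KO, beside -0.041, 0.052, 0.053 and 0.043 over all genes. The 3 knockout comparisons share the WT_plain tumours. With all 7 wild-type tumours as controls 0 members were called in each comparison.

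The nearest approach to a call was Olfr67, a class I gene. Its ratio was -0.020, -0.78 and -0.53 in MutyhKO and 0.97, 1.00 and 0.46 in WT_plain. The groups did not overlap, and the difference was -1.25 ± 0.36 (SE), with a limma adjusted p of 0.0849. Its kidney signal was well above background on 4 of 20 arrays. It passed with the spots of the array patches kept (limma adjusted p = 0.0488) and without Mth1KO 2 (0.0444). Groups did not overlap at 10 members in this comparison (15.2%), against 21.7% of all genes. Members apart in the other comparisons were 2 for Dmt1Tg, 8 for Ogg1KO and 6 for Mth1KO (3.03%, 12.1% and 9.09%, against 9.17%, 18.6% and 20.1% of all genes).

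The members differed between the 2 wild-type sets, as many other genes did. In WT_Dmt1 against WT_plain 8 of 66 members were called, all of them lower in WT_Dmt1 (12.1%). Among all genes 25.6% were called, 4.14% lower and 21.4% higher in WT_Dmt1. At an unadjusted limma p under 0.05 there were 17 members, against 38.2% of all genes. The median member difference was -0.20, against 0.135 over all genes, and 49 of 66 members were lower. As set and scan day cannot be told apart, the comparison is one of arrays from both scan days as well as of mice. The groups did not overlap at 11 members (16.7%), against 32.5% of all genes.

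Olfr1006 on chromosome 2 showed the largest of these differences. It was -0.56, -0.59, -0.29 and -0.22 in WT_Dmt1 and 0.32, 0.53 and 0.60 in WT_plain, a difference of -0.90 ± 0.23 (SE, limma adjusted p = 0.0098). Dmt1Tg, from the same scan day as WT_Dmt1, lay between the 2 sets at 0.019 ± 0.22 (SD, n = 4). The 3 knockout groups spread widely, from -0.18 to 0.98. After subtracting local probes, Olfr1006 differed by -0.70 ± 0.23 between the wild-type sets and was not called (limma adjusted p = 0.0502).

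Olfr1352 on chromosome 10 was -0.46, -0.17, -0.64 and -0.16 in WT_Dmt1 and 0.12, 0.41 and 0.32 in WT_plain, a difference of -0.64 ± 0.14 (limma adjusted p = 0.0047). Olfr181 on chromosome 16 was -0.83, -0.0043, -0.45 and -0.42 against 0.21, 0.24 and 0.17, a difference of -0.63 ± 0.17 (limma adjusted p = 0.0131). Olfr129 on chromosome 17 was -0.52, -0.048, -0.060 and -0.079 against 0.61, 0.31 and 0.34, a difference of -0.60 ± 0.13 (limma adjusted p = 0.00415). In these genes too the Dmt1Tg means of 0.045, 0.131 and 0.089 lay between the wild-type sets, and no genotype comparison called them.

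Olfr976 on chromosome 9 differed by -0.52 ± 0.16 (limma adjusted p = 0.0261), with WT_Dmt1 2 at 0.59 inside the range of WT_plain. It lost its call with the slide as a block (0.0635), the replicate block (0.0614) and without WT_Dmt1 1 (0.0647), and with normexp it differed by -0.23 (0.166, all limma adjusted p). Olfr722 on chromosome 14 differed by -0.46 ± 0.13 (limma adjusted p = 0.0170). It lost its call with normexp at -0.34 (0.168) and after subtracting local probes at -0.33 (0.0729, both limma adjusted p). The remaining called members were Olfr658 and Olfr1240, with differences of -0.44 and -0.33. With normexp Olfr658 differed by -0.16 (limma adjusted p = 0.295), and after subtracting local probes Olfr1240 differed by -0.10 (0.546) and Olfr658 by -0.28 (0.168). All 8 have 1 probe, so no second probe of the gene bears on them. The count was 4 without WT_plain 1, where Olfr1006, Olfr1352, Olfr181 and Olfr129 passed, and 5 with the slide as a random block. It was 6 with normexp, 1 of them higher. Of the 8 genes only Olfr1006, Olfr1352, Olfr181 and Olfr129 were among those 6, and the rest were other members.

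**Figure D5:**
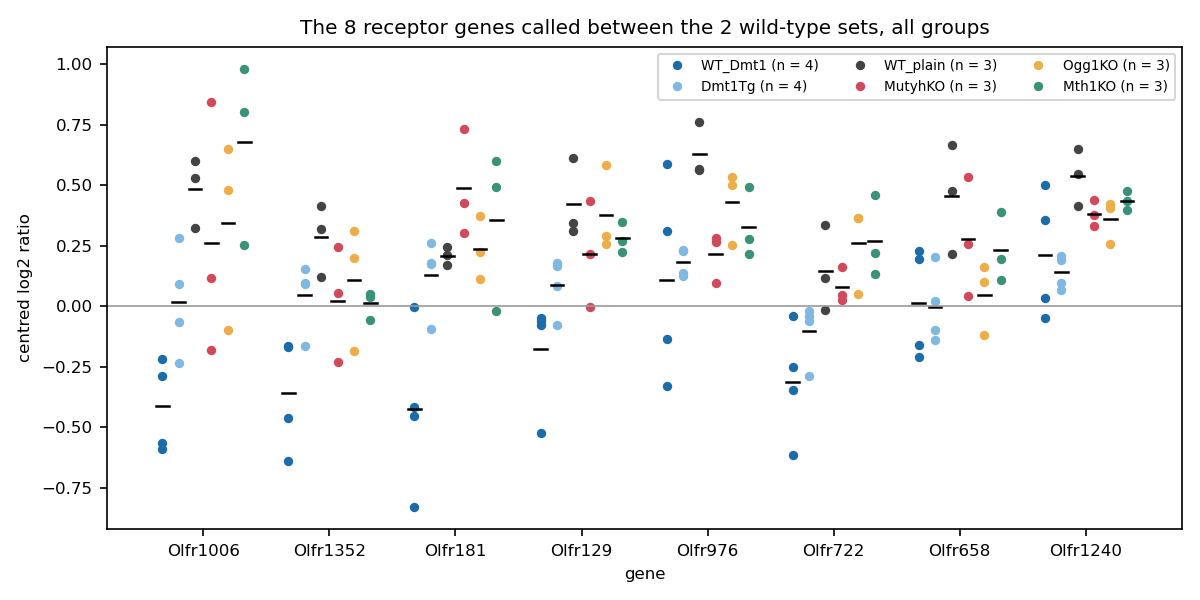
Centred log2 ratio (y axis) of the 8 member genes called between WT_Dmt1 and WT_plain (x axis), with every tumour of the 6 groups as a point and each group's mean as a bar. WT_Dmt1 has the lowest group mean in 6 of the 8 genes, and for Olfr658 and Olfr1240 Dmt1Tg is lower still.

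The same comparisons were made over bins of 1 Mb. Of the 36 bins that hold members, 0 were called by limma in each of the 4 genotype comparisons, against 0%, 0.460%, 0.0836% and 0.0418% of all bins for Dmt1Tg, MutyhKO, Ogg1KO and Mth1KO. At an unadjusted limma p under 0.05 there were 3, 9, 4 and 6, against 13.8%, 21.6%, 14.5% and 9.03% of all bins. Between the wild-type sets 23 member bins were called (63.9%), against 59.4% of all bins, 17 of them lower and 6 higher in WT_Dmt1. Lower bins made up 32.5% and higher bins 27.0% of all bins. At an unadjusted limma p under 0.05 there were 24 member bins, against 63.1% of all bins. The split depended on the processing. It was 0 lower and 9 higher with normexp, 5 lower and 10 higher with patch spots kept, and 9 lower and 9 higher with centring on the mode. The split over all bins at these settings is not given here. On chromosome 2 the bins chr2:36000000-36999999 and chr2:37000000-37999999 were not called, at -0.029 and -0.039 (limma adjusted p = 0.682 and 0.424). Bins of the other chromosome 2 arrays were lower. Examples are chr2:88000000-88999999 at -0.28 ± 0.037 and chr2:86000000-86999999 at -0.27 ± 0.036 (limma adjusted p = 5.03e-06 and 5.16e-06). With normexp these 2 examples were -0.039 and -0.090 (limma adjusted p = 0.557 and 0.142). Other bins went the other way, such as chr9:20000000-20999999 at 0.29 ± 0.053 and chr15:98000000-98999999 at 0.50 ± 0.075. The receptor spans that reach into these 2 bins did not show such differences. The chr9:19461456-20137747 span averaged 0.045 ± 0.092 (SD) in WT_Dmt1 and 0.124 ± 0.040 in WT_plain. The chromosome 15 span averaged -0.266 ± 0.207 in WT_Dmt1 and -0.298 ± 0.263 in WT_plain. The bin of Olfr1352 differed by 0.056, while the gene's own probe differed by -0.64.

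The receptor genes nearest to the engineered genes were not called in the matching comparison. Tumour and kidney had the same genotype, so an engineered change carried by both would not show in the ratio. Olfr286 is 2.16 Mb from Slc11a2, the gene of Dmt1, and differed by -0.19 ± 0.43 in Dmt1Tg against WT_Dmt1 (limma adjusted p = 0.91). Olfr212 on chromosome 6 is 3.19 Mb from Ogg1 and differed by 0.11 ± 0.26 in Ogg1KO (limma adjusted p = 0.91). Olfr273, the nearest member to Mutyh, is 63.6 Mb away and differed by -0.10 ± 0.16 in MutyhKO (limma adjusted p = 0.83). No probe on the array is named Nudt1, the gene of Mth1.

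Of a list of 20 genes of olfactory signalling and receptor choice, 15 had probes. By limma 0 were called in each genotype comparison, and 2, 0, 2 and 0 had an unadjusted p under 0.05 for Dmt1Tg, MutyhKO, Ogg1KO and Mth1KO, against the 12.0%, 16.1%, 11.5% and 12.3% of all genes. Between the wild-type sets 5 were called, all higher in WT_Dmt1, against 21.4% of all genes called higher. They were Rtp2, which helps receptors reach the cell surface (1.16 ± 0.29), Cngb1, a subunit of the channel opened by cyclic nucleotides (0.92 ± 0.20), and Lhx2, a transcription factor of sensory neurons (0.71 ± 0.12). The others were Gnb1, a G protein beta subunit (0.36 ± 0.12), and Slc24a4, an ion exchanger that ends the response (0.28 ± 0.083, SE throughout). Rtp2 has 1 probe, Cngb1 and Lhx2 have 2 each, Gnb1 has 6 and Slc24a4 12. No value of the 12 listed genes with at least 2 probes was called as a copy state in any of the 20 tumours (0 of 240).

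Set beside other families read by the same rule, the receptors had few probes. Of 88 vomeronasal receptor genes 59 have at least 2 probes, and 14 of their 1169 values were called (1.2%). Cytochrome P450 genes, 84 in number, gave 5 of 1111 (0.450%). With 1 probe allowed, vomeronasal receptor values were called at 0.911%, P450 values at 0.479% and the 6 taste receptor genes at 0 of 120, against 1.14% for the olfactory receptors. The median of gene medians was 0.193 for olfactory receptors, 0.156 for vomeronasal receptors, 0.111 for taste receptors and -0.021 for P450 genes, against -0.10 over all genes. The level above 0 was thus shared with the other receptor families and not with the P450 genes.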

How the data were processed

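DNA copy number was measured on 20 two-colour Agilent arrays, 1 per tumour. Per the file headers and the submitters' processing notes, Agilent Feature Extraction 10.7 (10.7.1.1 in the headers) made the processed red and green intensity of each spot after background subtraction and dye normalisation, and the deposited log10 ratio of red over green. The deposited value table holds log2 ratios, which differed from the scanner files by at most 6.29e-07. Medians of its columns lay between -0.028 and 0.031. No column belonged to no sample (0).

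From the processed signals, log2 red over green was taken, and flagged spots and array patches were left out. In a patch the local median of the centred log2 ratio, in a window of 21 spots, was at least 0.5 in size. Spots of a probe were averaged, and arrays were centred on the autosomal median without loess. Gene means were tested with limma 3.58.1 in R 4.3.3 on 6 groups, called at an adjusted p of 0.05. The remaining steps ran in Python 3.11.15 with pandas 2.3.3, scipy 1.17.1, matplotlib 3.10.9 and numpy 2.4.6. The state rule and the tests were tested on simulated data. A probe counted as well above background where most of its spots carried Agilent's flag for it. The number of arrays and, for most members, a single probe limit the precision.

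The members and lists were chosen with earlier results of these data known. Named were up to 6 called members per comparison by size, members with at least 2 probes by calls and by range, the member with most probes of each of the 8 clusters with most genes, the member nearest each engineered gene, and called genes of the signalling list. No probe was found under the names of trace amine receptors. Alternatives were normexp with an offset of 50, patches kept, the deposited table, centring on the mode, bright probes only, other probe minimums and thresholds, replicate or slide as a block, all 7 wild-type tumours, and leaving out each tumour. GC removal, whole spans and runs of probes were added after the data were seen. The X-linked member was not used.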

Additional observations from a re-analysis of the deposited data

Results flagged for a closer look

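In 60 checks of the family mean, the 8 largest clusters and the named genes in the groups of 4 tumours, 2 values stood apart by Dixon's criterion. Chance flags about 1 in 20 groups. Olfr129 was -0.52 in WT_Dmt1 1, while the other WT_Dmt1 tumours lay between -0.079 and -0.048. Olfr722 was -0.29 in Dmt1Tg 2, while the other Dmt1Tg tumours lay between -0.062 and -0.018.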

How the results depend on the processing

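Leaving out each tumour in turn gave 0 member genes called in the Dmt1Tg, Ogg1KO and Mth1KO comparisons, 0 to 1 in MutyhKO, and 4 (without WT_plain 1) to 10 between the wild-type sets. Member bins stayed at 0 in the genotype comparisons and ran from 18 to 24 between the wild-type sets. With patch spots kept, 1 member gene was called in MutyhKO, and 2, 4, 1 and 15 member bins in MutyhKO, Ogg1KO, Mth1KO and between the wild-type sets. With normexp the bins were 2 in MutyhKO, 1 in Mth1KO and 9 between the wild-type sets. Between those sets 5 member genes were called with the slide as a random block, 5 after subtracting local probes, and 0 with at least 2 or at least 3 probes, where 6 and 2 members remain. Of the members called in the main fit, only Olfr129, Olfr1352, Olfr181 and Olfr976 kept the call after subtracting local probes. Replicate numbers did not pair the tumours: correlations of same-numbered tumours ran from -0.145 to 0.151, over 0.1 in 1 of 15 pairs. With the replicate block 6 member genes and 22 member bins were called between the wild-type sets, and 0 in the genotype comparisons. Over all genes, the settings gave 0 to 127 calls for Dmt1Tg, 0 to 1166 for MutyhKO, 0 to 354 for Ogg1KO, 0 to 583 for Mth1KO and 2525 to 6248 between the wild-type sets. The shares of all bins at these settings are not given here, so the bin counts do not set members apart from the genome.

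Member copy states numbered 1 at 3 times the noise (0.833%, against 2.05% over all genes) and 1 with the shared profile kept (0.833%, against 4.40%). Both were Olfr56 in MutyhKO 2. With 1 probe allowed there were 15 (1.14%, against 0.802%). Of 300 cluster values, 2 were called after subtracting non-member probes inside and up to 1 Mb beyond each cluster. Bins were not so adjusted. At a size of 0.6 there were 0 (0.0334% of bins), at 3 times the noise 6 (2%, against 0.217%) and at 6 times 0 (0.205%). With patches kept there were 2 (0.667%, against 0.366%), with normexp 0 (0.0564%) and with the shared profile kept 12 (4%, against 1.97%). Bright probes gave 0 of 220 (0.213%) and all probes of the span 0 of 280 (0.211%). As the rule depends on the number of probes, clusters and bins are not strictly alike. With genes under 0.5 Mb apart the 1 call (0.3125%, against 0.211% of bins) was another, in WT_Dmt1 1.

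The family mean fell below 0 in WT_Dmt1 1 with normexp (-0.058), in Dmt1Tg 2 with normexp (-6.24e-05) and in WT_Dmt1 4 over member probes (-0.00068). Changes larger than the SD of the tumour's group follow. With normexp it was 0.052 in Dmt1Tg 1, 0.0026 in Dmt1Tg 3, 0.042 in WT_plain 1, 0.135 in WT_plain 2, 0.0024 in WT_plain 3, 0.069 in MutyhKO 2, 0.077 in MutyhKO 3, 0.145 in Ogg1KO 1, 0.051 in Ogg1KO 2 and 0.110 in Mth1KO 2. Centring on the mode gave 0.132 in WT_Dmt1 1, 0.181 in WT_plain 2, 0.219 in WT_plain 3 and 0.088 in MutyhKO 2. Bright probes gave 0.088 in WT_Dmt1 4, 0.285 in WT_plain 2 and 0.320 in MutyhKO 3. The mean over probes was 0.167 in WT_plain 1 and 0.240 in WT_plain 3. Patches kept gave 0.178 in WT_plain 1 and 0.181 in WT_plain 2, and leaving out Olfr69, Olfr913 and Olfr1164 gave 0.276 in WT_plain 2. Changes within that SD include Mth1KO 3 from 0.122 to 0.027 with the mode and 0.060 with normexp, Dmt1Tg 2 from 0.021 to 0.069 with bright probes, and WT_Dmt1 4 from 0.014 to 0.036 with normexp. The cause of these changes was not tested. Weak kidney signal at 32 of 66 genes and 1 probe at 60 of them limit what single genes can show.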
